A study of Mus musculus with 12 samples.

Results

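Opposite-strand genes are noncoding RNA genes named after a protein-coding neighbour on the other DNA strand, as Dgkeos is named after Dgke. They were taken by symbol from a table of ribosome-bound RNA, as every name that starts with a capital letter and ends in os, or in os and a number, without predicted Gm genes and microRNA genes. The pattern matched 103 of the 5764 genes in the table. Of these, 10 are annotated as protein coding and were set aside, which left 93 opposite-strand noncoding genes. RefSeq annotates 90 of them as long noncoding RNA, 2 (Msx1os and Zfhx2os) as antisense RNA and 1 (Speer4cos) as a transcribed pseudogene. The RNA came from POMCRiboTag mice, in which a tagged ribosomal protein is carried by neurons of the pro-opiomelanocortin (POMC) lineage. Arcuate-enriched tissue was taken from mice fasted for 16 h, and an antibody against the HA tag was used to isolate the ribosomes. The SENS group (6 libraries) had been shown chow behind wire mesh for 10 min, and the NEO group (6 libraries) wooden pins behind mesh. All groups shared the genotype, the fast, 1 h of habituation and a time near zeitgeber 6 h, and the labels give neither age nor the promoter that drives the tag. Sex is not given either. Mice were housed in pairs or triplets, and whether 1 library stands for 1 mouse is not stated. The p-values below may therefore reflect technical spread in part.

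Opposite-strand transcripts are usually low in abundance, spliced and polyadenylated, and many start close to the start of the coding gene and run away from it. Others lie within the coding gene and overlap its exons or introns. Some noncoding RNAs are found on ribosomes without coding for a known protein, so presence in a ribosome pull-down does not show translation. The low-input cDNA kit named in the labels primes from poly(A) tails and does not keep the strand of a read. Where a noncoding gene overlaps its partner, reads from the partner therefore cannot be told apart from its own.

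Every one of the 93 genes was located in RefSeq (GRCm38.p6), and each had its named partner on the same chromosome. The partners were 88 distinct genes, and all 93 pairings had a protein-coding partner. The gene bodies overlapped in 75 pairs, and 46 of the noncoding genes lay wholly inside the partner. The other 18 did not touch the partner, 13 of them with a gap under 500 bases. The annotation used here gives gene bodies and not exons, so exonic and intronic overlap were not separated. The strand of both genes was known for 64 pairs, and all 64 lay on opposite strands, as the names say. Among those 64, 30 noncoding genes lay inside the partner and 13 started upstream and ran away from it (divergent). A further 12 started within the partner and ran out over its start, 8 started beyond its end, and 1, Ptgs2os2, lay downstream with a gap of 50808 bases. Noncoding genes spanned a median of 9268 bases. The shortest, Sox6os, spanned 572 bases and the longest, Nkx2-2os, 147599 bases.

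**Figure D1:**
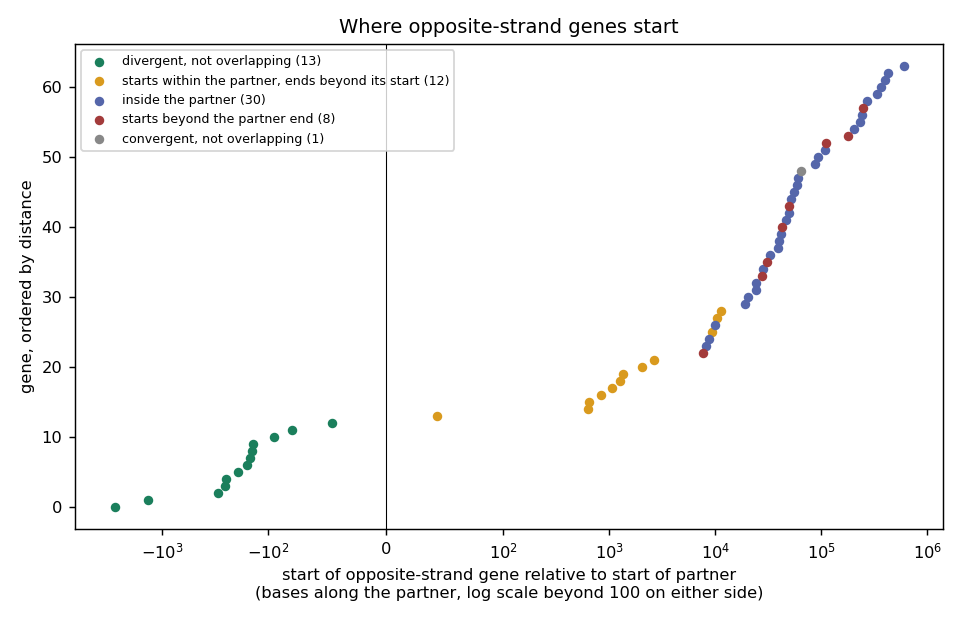
Each point is 1 of the 64 opposite-strand genes with both strands known, placed by the distance in bases from the partner's start to its own start (negative is upstream) and coloured by arrangement. The 13 divergent genes lie left of 0, and the 30 genes inside their partners start downstream of the partner's start.

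Promoter sequences are given for 4 genes. Etaa1os and Smc2os were the only members with reads in all 12 libraries, and Dgkeos and Nkx2-2os had the smallest unadjusted p in either direction. The windows are from RefSeq (GRCm38.p6), run from 250 bases before to 50 bases after the annotated start on the gene's own strand, 5′ to 3′, and base 251 is the gene's first base. Capitals mark the motif GGGCGG where present on either strand, and in the same way the motif TATAAA and the shorter motif CCAAT. No motif overlaps another in these 4 windows. Etaa1os lies at chr11:17953720-17954019 (+), and the first base of Etaa1, on the other strand, is base 156. Smc2os lies at chr4:52438915-52439214 (-), and its first base is 257 bases upstream of that of Smc2. Dgkeos lies at chr11:89060501-89060800 (+), 1 annotated start of Dgke on the other strand is base 248, its gene body reaches 45 bases into Dgkeos, and none of the 3 motifs is present. Nkx2-2os lies at chr2:147183833-147184132 (+), inside Nkx2-2.
Etaa1os: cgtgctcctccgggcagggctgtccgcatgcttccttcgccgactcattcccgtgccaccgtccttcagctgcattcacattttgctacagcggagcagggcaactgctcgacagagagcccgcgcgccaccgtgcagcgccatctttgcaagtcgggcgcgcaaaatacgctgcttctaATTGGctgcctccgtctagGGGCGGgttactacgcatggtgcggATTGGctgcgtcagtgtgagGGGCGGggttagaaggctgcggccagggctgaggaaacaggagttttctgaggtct
Smc2os: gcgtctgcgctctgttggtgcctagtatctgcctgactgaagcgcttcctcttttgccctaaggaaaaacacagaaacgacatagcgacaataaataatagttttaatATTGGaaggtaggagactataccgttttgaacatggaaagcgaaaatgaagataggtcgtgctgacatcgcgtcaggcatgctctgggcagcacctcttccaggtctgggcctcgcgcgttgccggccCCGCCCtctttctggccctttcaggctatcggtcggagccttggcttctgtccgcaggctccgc
Dgkeos: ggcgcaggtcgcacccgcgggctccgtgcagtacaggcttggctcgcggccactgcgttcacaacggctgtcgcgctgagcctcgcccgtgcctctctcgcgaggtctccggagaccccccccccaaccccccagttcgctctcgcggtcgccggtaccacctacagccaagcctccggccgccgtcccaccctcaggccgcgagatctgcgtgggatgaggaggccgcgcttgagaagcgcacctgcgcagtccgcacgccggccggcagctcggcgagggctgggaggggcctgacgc
Nkx2-2os: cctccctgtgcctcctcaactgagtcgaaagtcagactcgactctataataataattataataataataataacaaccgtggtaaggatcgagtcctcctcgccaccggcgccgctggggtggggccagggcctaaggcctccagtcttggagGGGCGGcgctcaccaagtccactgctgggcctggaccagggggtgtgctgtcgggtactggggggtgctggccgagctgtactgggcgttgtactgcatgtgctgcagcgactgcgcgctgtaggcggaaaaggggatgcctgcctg

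A promoter window was held for 76 of the 93 genes. The CG dinucleotide, which is dense in the promoters of widely used genes, was counted in each window. The median was 5.5 in the 76 opposite-strand windows, 20 in the 72 windows of their partners, 4 in 9457 windows of other long noncoding genes and 7 in all 27025 windows. Windows with 10 or more CG dinucleotides made up 35.5% of the opposite-strand windows, 19.5% of the windows of other long noncoding genes and 43.9% of all windows. The only window listed for Rbm46os lies at another start, far from the end of the gene body next to its partner, so it was left out of the next counts. Among the 11 other opposite-strand genes that started within 500 bases of the partner's start the median was 21, and 8 of the 11 had 10 or more. Among the 52 with both strands known that started farther away the median was 4.5, and 10 had 10 or more. All 11 windows of close pairs share bases with the partner's own window, so these counts are partly counts of the partner's promoter. GGGCGG was present in 17 of 76 opposite-strand windows (22.4%), in 16.8% of other long noncoding windows and in 35.9% of all windows. CCAAT was present in 26 (34.2%), in 35.9% of other long noncoding windows and in 38.0% of all windows. TATAAA was present in 6 (7.89%), in 15.7% of other long noncoding windows and in 14.2% of all windows. Each motif was searched on both strands. Dgkeos and Etaa1os, with 38 and 25 CG dinucleotides, were among the CG-rich windows, while that of Ppifos held 3.

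**Figure D2:**
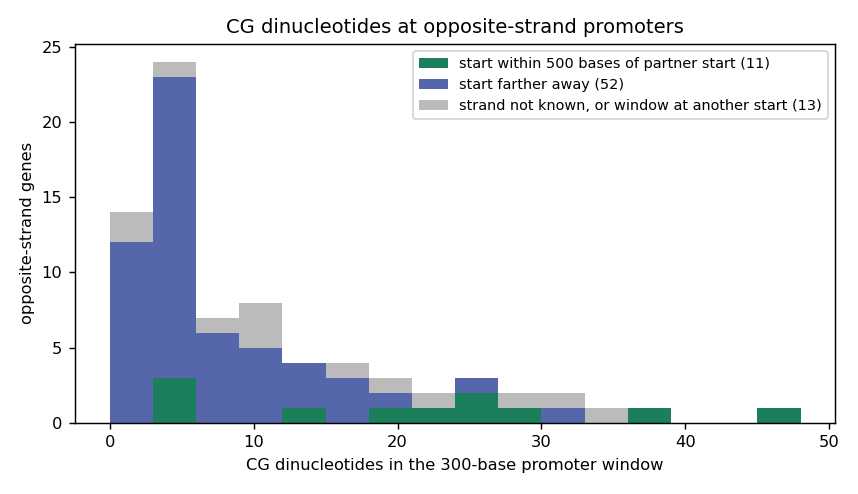
The histogram counts opposite-strand genes by the CG dinucleotides in their 300-base promoter window, with colours for the distance between the starts of gene and partner, and grey where a strand is not known or the window lies at another start (Rbm46os). Of the 11 windows at a start within 500 bases of the partner's, 8 have 10 or more CG dinucleotides.

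Values are CPM, in which the reads of each library are scaled to the same total over the genes of this table alone. Between 8619 and 18299 reads per SENS library and between 6901 and 11139 per NEO library lie behind the table, so 1 read was worth 54.6 to 145 CPM. A value of 0 allows up to 3 reads, which over a whole group is 38.2 CPM for SENS and 58.8 CPM for NEO, for counting error only. No marker of POMC neurons on the list used (4 genes, Pomc among them) had a row, so the labelled cell type was not checked here. Nor did any listed marker of other arcuate neurons, astrocytes, oligodendrocytes, microglia, ependymal cells and tanycytes, or endothelial cells. How genes were chosen for the table is not given, so a missing row does not show that a cell type was absent. Of 7 blood markers 3 had a row, with summed levels of 834 to 4236 CPM in SENS libraries and 391 to 2066 CPM in NEO libraries. Of 7 pituitary markers 6 had a row, at 64.1 to 9796 CPM in SENS and 380.5 to 2797 CPM in NEO. The part of these cells in the values below was not tested.

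Reads were found for 85 of the 93 opposite-strand genes. The remaining 8, namely Dbhos, Nphs1os, Nell1os, Lyzl4os, Il1bos, Ptgs2os, Gata5os and Ptprtos, were at 0 in all 12 libraries (8.60% of the members, against 10.8% of all genes in the table). Most detected genes were sparse. Over all libraries 53 genes had 10 or more reads, 16 had 50 or more, and 36 had over 50% of their reads in a single library. The median was 12 reads per opposite-strand gene, 7.35 per other long noncoding gene and 9 per gene over the whole table. Opposite-strand genes were above 0 in a median of 4 libraries, and 15.1% of them were above 0 in 10 or more libraries, against 11.9% of all genes. Reads that were not whole numbers occurred for 8 members (9.41% of those detected, against 22.7% in the whole table). These were Msx1os, Grin1os, Arhgap20os, Rbm46os, Cd55os, Csmd2os, Speer4cos and Ccdc42os, whose values are uncertain.

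Between 30 and 57 opposite-strand genes were above 0 per SENS library and between 25 and 50 per NEO library, with means of 39.7 ± 10.1 in SENS and 35.0 ± 8.85 in NEO (SD, n = 6 each). The groups overlapped. SENS libraries were deeper in sum but not each of them, as SENS 1 had 8619 reads and NEO 2 had 11139. Summed over the 93 genes the level was 16963 ± 3866 CPM in SENS and 17116 ± 2678 CPM in NEO (SD, n = 6 each). In reads this was 1.72% of 78624 reads in SENS and 1.75% of 51054 reads in NEO. Read numbers given below for single genes and lists are not scaled for this difference in depth. Reads in 1 group only were found for 16 genes in SENS (17.2% of 93) and for 5 genes in NEO (5.38%), against 20.3% and 9.16% of all genes in the table. Reads in all 6 libraries of a group were found for 3 genes in SENS (Etaa1os, Smc2os and Nkx2-2os). In NEO they were found for 11 genes, namely Etaa1os, Smc2os, St8sia3os, Atad3aos, Kcnd3os, Tspan2os, Dgkeos, Bcas1os2, Prkag2os1, Alkbh3os1 and Ppifos. Over the whole table of 5764 genes the same counts were 443 in SENS and 426 in NEO, beside 3 and 11 of the 93 members. Whether the members differ from the whole table in this was not tested.

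**Figure D3:**
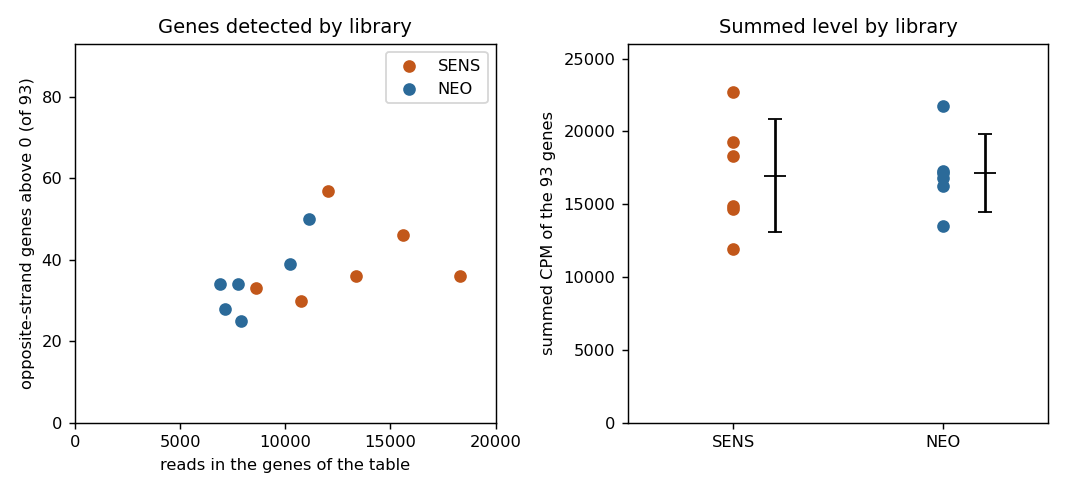
The left panel plots the number of opposite-strand genes above 0 (of 93) against reads in the genes of the table, 1 point per library, and the right panel the summed CPM of the 93 genes with mean and SD (n = 6 each). SENS libraries span 30 to 57 genes and NEO libraries 25 to 50, and the summed levels overlap.

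The comparison of SENS with NEO asked whether these RNAs differed in level in the pull-down after food was sensed. None passed. In a limma fit to log2(CPM + 1) of the 5141 genes that averaged 1 CPM or more, 0 of 85 opposite-strand genes had an adjusted p under 0.05, and 0 of all genes did (0%). The smallest adjusted p among the members was 0.745. At an unadjusted p under 0.05 there were 3 members, with Nkx2-2os higher and Dgkeos and Ppifos lower in SENS, against 3.68% of all genes (1.83% higher and 1.85% lower), so the share of members (3.53%) lay near that background. That count was 6 (7.06%, 5 of them lower) without SENS 3, against 3.55% of all genes. It was 5 without SENS 1, SENS 4 or SENS 5 (5.88% to 6.17%, against 3.85% to 4.11% of all genes). Without any other library it was between 2 and 4 (2.35% to 4.76%, against 3.31% to 3.86% of all genes). Values were higher in SENS for 47 members (55.3%) and lower for 38. The share higher was 57.0% over all genes and 55.6% over 1118 other long noncoding genes. The median log2 fold change of members was 0.08, against 0.39 over all genes and 0.31 over those other long noncoding genes. With the 21 members at 0 in 1 group set at the limit of 3 reads, the median of members was 0. No limits were set for the other genes, so this value is not comparable with their medians. The groups did not overlap for 0 members and for 0.0973% of all genes. A log2 fold change here is a difference of mean log2(CPM + 1), and where libraries are at 0 it depends strongly on the added 1. The median SE of a member's log2 fold change was 1.95, so only large differences could have passed. In such bulk pull-downs fewer cells of a type and less RNA per cell cannot be told apart.

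**Figure D4:**
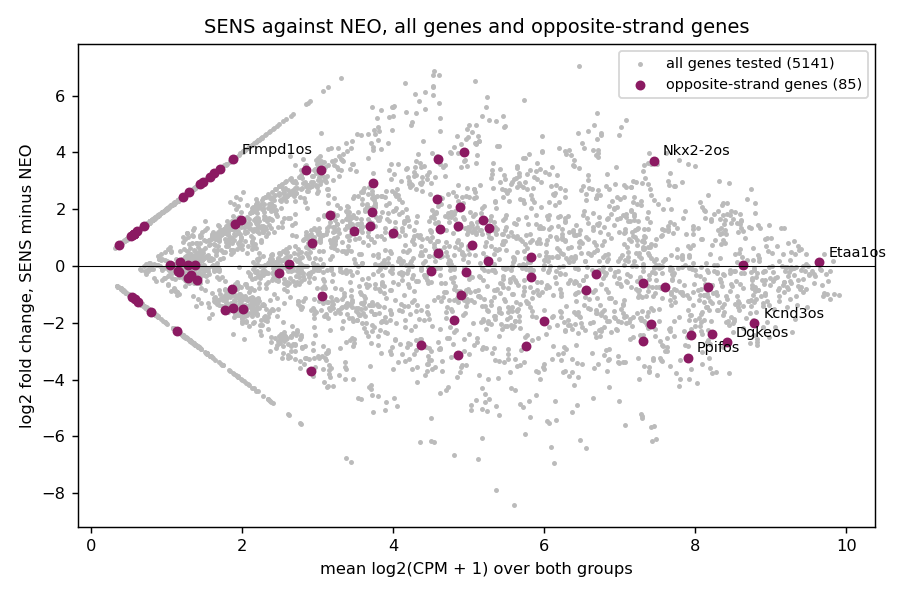
Each point is a gene, with its mean log2(CPM + 1) over both groups on the x axis and its log2 fold change, SENS minus NEO, on the y axis, grey for all 5141 genes and purple for 85 opposite-strand genes. Nkx2-2os lies at 3.71 and Ppifos at -3.23, and all 85 opposite-strand genes lie inside the range of the other genes.

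Nkx2-2os is the opposite-strand gene of Nkx2-2, a homeobox transcription factor of the ventral neural tube (chr2:147184083-147331681, + strand, with 11352 bases over the partner). It had 83.1 to 2077 CPM in SENS libraries (median 1075) and 0 to 516 CPM in NEO libraries (median 238). SENS 1, 3, 4 and 6 lay above every NEO library, SENS 3 only just, while SENS 2 and 5 lay within the NEO range, and NEO 4 and 5 were at 0. The mean was 1040.2 ± 850.3 CPM in SENS and 240.1 ± 219 CPM in NEO (SD, n = 6 each), with 82 reads against 13. SENS 6 held 38 of the 82 SENS reads. The log2 fold change of Nkx2-2os was 3.71 (SE 1.60, adjusted p = 0.745, limma). With 1 library left out it lay between 2.59 (without NEO 5) and 4.39 (without NEO 6). In linear terms the mean in SENS was 4.33 times that in NEO. The library numbers in the labels fall into 3 ranges that hold as many SENS as NEO libraries (1, 3 and 2 of each). Within them the difference was 3.05, 3.60 and 4.20. The ranges with 3 and 2 libraries of each group include a NEO library at 0. Nkx2-2os was named in part for its p in these same libraries, so the like signs are not separate support.

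Dgkeos is named after Dgke, diacylglycerol kinase epsilon, and shares 45 bases with it (chr11:89060751-89067884, + strand). Its window, printed above, is that of a head-to-head pair. Dgkeos had 0 to 652 CPM in SENS (median 348) and 419.5 to 1902 CPM in NEO (median 956). SENS 1 and SENS 4 lay within the NEO range and the other SENS libraries below it. The mean was 329.6 ± 228 CPM in SENS and 981 ± 538 CPM in NEO (SD, n = 6 each), with a log2 fold change of -2.67 (SE 1.17, adjusted p = 0.745, limma). SENS 6, the deepest library, was the one at 0, and the log2 fold change of Dgkeos was -1.26 without it. Despite its depth SENS 6 had the smallest share of all genes above 0 among SENS libraries (27.6%, against 35.1% to 41.7%). Its depth therefore does not make a 0 there strong evidence, here or for other genes. Within the 3 library number ranges it was -0.07, -1.06 and -6.39.

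Ppifos is named after Ppif, the mitochondrial cyclophilin of the permeability transition pore, starts beyond the end of Ppif and covers 4113 bases of it (chr14:25696356-25701282, - strand). It had 0 to 1246 CPM in SENS (median 393) and 279.7 to 2248 CPM in NEO (median 768). The groups overlapped, with SENS 3 and 5 above most NEO libraries. The mean was 539 ± 560.3 CPM in SENS and 965 ± 758 CPM in NEO (SD, n = 6 each), with a log2 fold change of -3.23 (SE 1.44, adjusted p = 0.745, limma). SENS 1 and SENS 6 were at 0, and without either one the log2 fold change of Ppifos was -1.98. In linear terms the mean in NEO was 1.79 times that in SENS, with 2 SENS libraries at 0.

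St8sia3os, of the sialyltransferase gene St8sia3, had 0 to 664 CPM in SENS (median 356) and 391 to 1304 CPM in NEO (median 617). Alkbh3os1, of the alkylation repair gene Alkbh3, had 0 to 599.8 CPM in SENS (median 230.3) and 129 to 1259 CPM in NEO (median 610.2). In both genes SENS 6 was the only library at 0, and the groups overlapped otherwise. The log2 fold changes were -2.39 (SE 1.24) and -2.43 (SE 1.35), and -0.98 and -1.09 without SENS 6. Kcnd3os, of the A-type potassium channel gene Kcnd3, had 0 to 2142 CPM in SENS (median 569.95) and 634 to 1818 CPM in NEO (median 777). Here SENS 1 was at 0 and SENS 4 above all NEO libraries, and the log2 fold change of -2.02 (SE 1.08) was -0.46 without SENS 1. All 3 had an adjusted p = 0.745 in limma.

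The other members with higher values and the smallest unadjusted p had no read in NEO. Frmpd1os lies inside the scaffold gene Frmpd1 and had 12 reads in SENS 3, 5 and 6, of which 9 were in SENS 6. Its pooled SENS level was at least 2.60-fold higher than the NEO limit of 3 reads over the group, without the error of the 12 reads. Dlx4os, of the homeobox gene Dlx4, had 18 reads in SENS 1 and SENS 3, of which 14 were in SENS 3, a pooled level at least 3.90-fold higher than that limit. Each of these values rests on 1 library: Frmpd1os was at 0.846 times the limit without SENS 6, and Dlx4os at 1.04 times without SENS 3. Rsf1os1 (5 reads), inside the chromatin remodelling gene Rsf1, and Atcayos (4 reads), of the neuronal gene Atcay, had pooled SENS levels of only 1.08 and 0.866 times the limit. For all 4 genes the 0 reads in NEO therefore show little. All 4 had an adjusted p = 0.745 in limma.

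Etaa1os had the most reads of all members, 79 in SENS and 44 in NEO. Its partner Etaa1 encodes an activator of the replication stress kinase ATR and lies on the other strand with a gap of 94 bases between the gene bodies. Etaa1os had 415 to 2421 CPM in SENS (median 797) and 179.5 to 1538 CPM in NEO (median 895), and the ranges overlapped. The mean was 1007 ± 742 CPM in SENS and 907 ± 458 CPM in NEO (SD, n = 6 each; log2 fold change 0.13, SE 0.70, adjusted p = 0.988, limma). Smc2os, which diverges from the condensin gene Smc2, had 166 to 1160.2 CPM in SENS and 145 to 684 CPM in NEO, with a log2 fold change of 0.04 (SE 1.00). Gene lengths are not those of the spliced transcripts, so levels were not ranked between genes.

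Rbm3os, of the cold-inducible RNA-binding protein gene Rbm3, had 36 reads in SENS and 34 in NEO, with 0 to 874 CPM in SENS and 0 to 2156 CPM in NEO. Arhgap33os, 31 bases from the GTPase regulator gene Arhgap33, was above 0 in 3 libraries of each group, up to 1276 CPM in SENS and 1616 CPM in NEO. Ptgs2os2, downstream of the cyclooxygenase gene Ptgs2, was above 0 in 4 libraries of each group, and SENS 4 held 28 of its 40 SENS reads. The log2 fold changes of Rbm3os, Arhgap33os and Ptgs2os2 were -0.60, -0.23 and -0.39, with SEs of 1.70, 2.74 and 2.41, and none passed (adjusted p = 0.929 to 1.000, limma). Leaving out 1 library turned the sign in each of them.

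**Figure D5:**
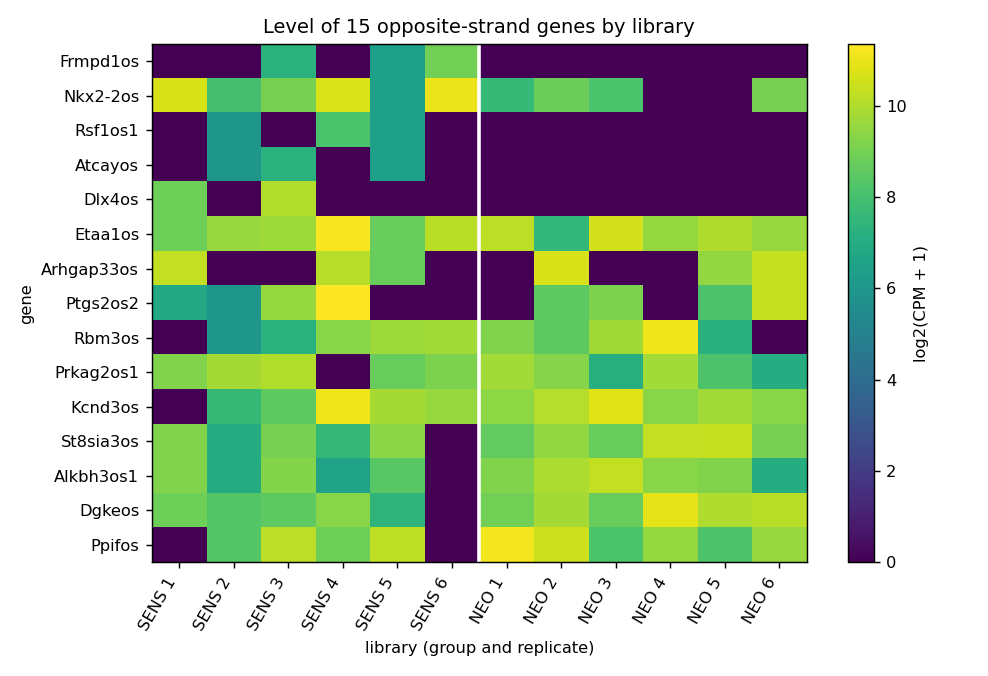
The heat map gives log2(CPM + 1) in each library for 15 opposite-strand genes, the 10 with the highest mean CPM and the 5 with the smallest unadjusted p in each direction, with SENS libraries left of the white line and NEO libraries right of it. SENS 6 is at 0 for Ppifos, Dgkeos, Alkbh3os1 and St8sia3os, and the 4 genes with no read in NEO are at 0 in at least 3 SENS libraries.

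Grouped by partner, 7 members belong to homeobox transcription factor genes. All 7 members had reads (180.5 of 78624 in SENS and 53.5 of 51054 in NEO). None was called, and 1 (Nkx2-2os) had an unadjusted p under 0.05. Values were higher in SENS for 5 and lower for 2, where 57.0% of all genes were higher. The median log2 fold change was 3.36, against 0.39 over all genes. It is the value of Zeb2os, which had NEO reads in only 1 library, and depends strongly on the added 1. Setting Dlx4os at its limit could not move this median, as Dlx4os already lay below it. Msx1os, which lies inside Msx1 and carried fractional reads in 4 libraries, had 585 ± 678 CPM in SENS and 170.2 ± 308 CPM in NEO (log2 fold change 4.03, SE 2.67). Its 46.5 SENS reads included 22.5 in SENS 3. Zeb2os had 7 reads in SENS and 1 in NEO, Zfhx2os 9 and 3. Dlx6os2, inside Dlx6, a gene of forebrain GABA neurons, had 17 reads in 2 SENS libraries and 22 reads in 4 NEO libraries (log2 fold change -2.79, SE 2.79). Otx2os1 had 1 read in SENS and 4 in NEO. The limma adjusted p of each of these was at least 0.745. A fixed list of family names put 4 further members with other transcription factors, and factors outside that list were not counted. Of these 4, Sox6os had 15 reads in SENS and 20 in NEO, and Foxl2os 34 and 14. Sox5os3 and Gata5os had 3 reads or fewer in all. None of these 4 was called, with 1 higher and 2 lower in SENS among the 3 tested (median log2 fold change -0.18).

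Partners of neuronal signalling and secretion, a list written after the symbols were seen, had 12 members, of which 11 had reads. None was called at either threshold. In SENS 9 had higher and 2 lower values, where 57.0% of all genes were higher. The median log2 fold change of the list was 1.63, against 0.39 over all genes. With the 2 members at 0 in 1 group set at the limit of 3 reads, the list's median was 0.45, while the 0.39 has no such limits. Pcsk2os2 lies inside Pcsk2, whose protein cleaves precursors such as POMC into active peptides. It had 17 reads in 5 SENS libraries and 10 reads in 2 NEO libraries, 9 of the 10 in NEO 1, and means of 234 ± 244 CPM in SENS and 162 ± 354 CPM in NEO (log2 fold change 3.76, SE 2.72, adjusted p = 0.745, limma). Gad1os, of the GABA synthesis enzyme gene Gad1, had 10 reads in SENS and 16 in NEO (log2 fold change -1.92, SE 2.27). Grin1os, inside the NMDA receptor subunit gene Grin1, had 24.2 reads in SENS, 19 of them in SENS 6, and 7.2 reads in NEO. Plxna4os1, inside the semaphorin receptor gene Plxna4, had 40 reads in SENS, 26 of them in SENS 6, and 7 reads in NEO. Chn1os3, of the Rac regulator gene Chn1, had 46 reads in SENS, 24 of them in SENS 6, and 14 reads in NEO. In these last 3 genes SENS 6 held most of the SENS reads, while Dbhos, of the noradrenaline synthesis gene Dbh, was at 0 throughout.

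Partners of energy and nutrient use, also listed after the symbols were seen, had 8 members. These members had 132 of 78624 reads in SENS and 128 of 51054 reads in NEO. None was called, and Ppifos alone had an unadjusted p under 0.05. Values were higher in SENS for 2 and lower for 6, where 57.0% of all genes were higher. The median log2 fold change was -0.61 (-0.55 with 1 member set at its limit), against 0.39 over all genes. Prkag2os1 lies inside Prkag2, the gene of a regulatory subunit of the energy sensor AMPK. It had 0 to 1049.6 CPM in SENS (median 563) and 129 to 888 CPM in NEO (median 459), and only SENS 4 was at 0. The mean was 582 ± 370.5 CPM in SENS and 492 ± 353 CPM in NEO (SD, n = 6 each), while the log2 fold change was -0.73 (SE 1.28, adjusted p = 0.840, limma) and turned to 0.83 without SENS 4. Rptoros, inside the mTORC1 scaffold gene Rptor, had 25 reads in SENS and 21 in NEO (log2 fold change 0.76, SE 2.68). Igf2os, named after the growth factor gene Igf2 and overlapping it, had 2 reads in SENS and 7 in NEO, all 7 in NEO 3.

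The table held the named partner of 10 members. The other partners are not analysed here. None of the 8 partner genes with reads was called, and 1, Ccdc42, a sperm flagellum gene, had an unadjusted p under 0.05. Ccdc42 had 192 to 3538 CPM in SENS and 0 to 888 CPM in NEO, with 38 of its 63 SENS reads in 1 library and 15 reads in NEO (log2 fold change 3.34, SE 1.66, adjusted p = 0.745, limma). Its divergent neighbour Ccdc42os had 0.25 reads in 1 SENS library and none in NEO. Has2, of hyaluronan synthesis, had 23 reads in SENS and 31 in NEO, and Has2os inside it 7 and 3. Asb17, a testis gene, had 3 reads in SENS and none in NEO, while Asb17os inside it had 3 reads in SENS and 10 in NEO. The cytokine gene Il1b had 2 reads in SENS and 11 in NEO, all 11 in 1 library, and Il1bos had none. Speer4c had 6.23 reads in SENS and 5.37 in NEO, and Speer4cos 0.6 in SENS and none in NEO. Hmgb4 had 6 reads in SENS and Hmgb4os 1, with none in NEO for either. Nphs1, which encodes the kidney slit protein nephrin, had 3 reads in SENS and 3.2 in NEO, and Nphs1os none. The citrate transporter gene Slc13a2 had 1 read in SENS and Slc13a2os 1 read in NEO. Both genes of the pairs Gata5 and Gata5os, and Lyzl4 and Lyzl4os, were at 0 in all libraries. With so few reads, whether a noncoding gene and its partner moved together was not detectable.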

How the data were processed

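The authors deposited 1 table of CPM values for 5764 genes and 12 libraries, made from 0.5 ng of RNA each, per the labels' protocols. Per the submitters' processing notes, FastQC, HISAT2, featureCounts and edgeR were used, with GRCm38 (mm10), and roles and versions are missing there. How genes were filtered, and whether counting used strand or split shared reads, is not given in the sources used here. The most frequent value above 0 in a column was taken as 1 read. On that scale 81.2% of values above 0 were whole (tolerance 0.005 reads), so no count model was fitted.

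SENS and NEO were compared with limma 3.58.1 (R 4.3.3) with a variance trend on log2(CPM + 1), for genes averaging 1 CPM or more, two-sided, with Benjamini-Hochberg adjustment over all genes tested and no covariate. The fit was also run on simulated counts with set changes. Their detection was required only for large changes at a low spread. It therefore does not show how well the fit detects changes in values as sparse as these. Alternatives were pseudocounts of 0.1, 50 and 100, other filters, no trend, quantile scaling, a replicate block, a block for the library number range, and each library left out.

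The members and lists were chosen with earlier results of these data known. Genes named with full values were the 10 members with the highest mean CPM, the 5 per direction with the smallest unadjusted p, and members whose partner had a row. Others (Smc2os, and the examples of the partner lists) were chosen after their values were seen. Locations and sequences come from RefSeq, GRCm38.p6, matched by symbol. Coding genes were set aside by RefSeq type. The values of 1 of them are not reported here.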

Additional observations from a re-analysis of the deposited data

Results flagged for a closer look

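In 5 of 30 groups of 6 values that were not all 0, 1 library lay far above the others by Dixon's criterion. Chance gives about 1 in 20 such groups for normally distributed values. That rate need not hold for genes with few reads, some of them chosen by their p, so the number flagged says nothing by itself. Frmpd1os had 492 CPM in SENS 6, and the next SENS library had 149.9 CPM. Rsf1os1 had 279 CPM in SENS 4 (next 83.1 CPM), which is 3 reads. Etaa1os had 2421 CPM in SENS 4 (next 1148 CPM). Ptgs2os2 had 2607 CPM in SENS 4 (next 749.7 CPM). Kcnd3os had 1818 CPM in NEO 3 (next 1077 CPM).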

How the results depend on the processing

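The counts of opposite-strand genes called, of partner genes called and of all genes called were 0 under every alternative and with each library left out. Detection was 85 genes above 0, 83 with at least 1 read, and 95 when coding names were kept. The median log2 fold change of members, 0.08, lay between -0.16 (without NEO 4) and 0.83 (without NEO 2) with a library left out, and was -0.08 over the 44 members averaging 100 CPM or more. Members at an unadjusted p under 0.05 numbered 3, and 2 to 6 with a library left out (2.35% to 7.06%, against 3.31% to 4.11% of all genes). They numbered 0 with no filter, against 2.78% of all genes. The count was 1 with a replicate block or quantile scaling (1.18%, against 3.42% and 2.86% of all genes). It was 3, all higher, without a variance trend (3.53%, against 4.84% of all genes). Under the other alternatives it was 2 or 3 (2.35% to 4.55%, against 2.80% to 5.35% of all genes). The replicate block gave 0 called members, as without it. Same-numbered libraries did not deviate together (r from -0.03 to 0.08, and 1 of 6 SENS libraries correlated best with its own number).

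Of 29 named genes with a fit, 21 kept the sign of their log2 fold change under every alternative and with each library left out. Prkag2os1 turned to 0.069 and 0.13 with pseudocounts of 50 and 100, Speer4c to -0.26 and -0.20, and Nphs1 to 0.0070 with quantile scaling. With libraries left out the ranges were -0.28 to 0.34 for Etaa1os, -2.12 to 0.81 for Rbm3os, -1.18 to 0.83 for Prkag2os1, -1.32 to 0.89 for Arhgap33os, -1.60 to 0.74 for Ptgs2os2, -1.66 to 1.21 for Il1b, -1.40 to 0.87 for Nphs1 and -0.87 to 1.04 for Speer4c. The cause was not tested. Few reads limit all of these values.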

Other observations

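Some of the coding genes that fit the letters of the name have opposite-strand names. Fancd2os had 29 reads in 4 SENS libraries and 35 reads in 6 NEO libraries (log2 fold change -3.23, SE 1.57, adjusted p = 0.745, limma). Trpc5os had 3 reads in SENS and 6 in NEO, and Crxos 4.5 and 2.08. A further 6 end in os by chance. Nos2, inducible nitric oxide synthase, had 9 reads in SENS and 16 in NEO, of which 15 lay in 1 library. The oocyte kinase gene Mos had 32 reads in SENS, 31 of them in SENS 6, and 5 in NEO. Nanos2 had 7 reads in SENS and 18 in NEO, Otos 5 and 7, Ros1 6 and none, and Icos, the T cell costimulator, 2 and none. None of the genes named here was called.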
